A study of Capra aegagrus with 10 samples.

Results

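The microRNAs (miRNAs) of goat mammary gland cells that had received the virus labelled Lv3NC were set beside those of cells labelled Blank. A miRNA entered this comparison when it had at least 5 CPM (counts per 1000000 miRNA reads) in at least 2 of the 4 libraries. The rule kept 356 of the 1403 miRNAs listed for the series, of which 202 were known goat miRNAs and 154 were predicted from the reads (names beginning novel_mir). The other 167 known and 880 predicted miRNAs did not reach that level, although the 356 held 99.9% of the miRNA reads in each library. Just inside the limit, by the second-highest CPM of the 4 libraries, lay novel_mir55 and miR-361-3p at 5.12 CPM and miR-122 at 5.15 CPM. Just outside it lay miR-30e-5p and novel_mir59, both at 4.93 CPM, and novel_mir1111 at 4.81 CPM.

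All libraries came from mammary gland cells of the Lanshan dairy goat grown in 3D culture, and the series holds 10 libraries in 5 groups of 2. The design text names overexpression and knockdown of the long noncoding RNA lncRNA55666 by virus, and lists a group called 3NC beside the knockdown and one called 5NC beside the overexpression. Lv3NC is therefore described here as the control virus of the knockdown (labelled KD553), Lv5NC as that of the overexpression (labelled OV55666), and Blank as cells with no virus. The labels do not say what the control virus carries, its dose, the time after transfer, the age of the animals, or whether the 2 libraries of a group came from separate cultures or animals. The p-values below therefore measure only the spread between libraries, which may be technical.

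A miRNA is cut from a hairpin precursor, and 1 strand of the resulting duplex is usually kept by an Argonaute protein, where it guides repression of messenger RNAs that match its seed. The arm of the hairpin is written as -5p or -3p, and the less used arm is mostly degraded. In the mammary gland, miRNAs such as miR-103 and the let-7 family have been studied for their part in milk fat synthesis and in the differentiation of the gland. A control virus is used to separate the effect of a delivered sequence from that of the virus transfer itself.

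The table held 20393919 and 19345179 reads in the Lv3NC libraries, against 25445687 and 19616447 reads in the Blank libraries. Of these, 5949222 and 6088975 reads in Lv3NC and 5074525 and 8739602 reads in Blank lay on miRNAs. The miRNA share was 29.2% and 31.5% of the table in Lv3NC and 19.9% and 44.6% in Blank, so the Lv3NC values lay between the Blank ones. Reads on RF identifiers took 11.2% and 15.98% in Lv3NC, against 15.4% and 10.7% in Blank, and reads on intergenic, intron and exon regions took 59.6% and 52.5% in Lv3NC, against 64.7% and 44.7% in Blank. None of these shares separated the groups, and with 2 libraries a group the exact two-sided permutation test cannot go below p = 0.333. The number of predicted miRNAs with any read was 295 and 268 in Lv3NC and 255 and 610 in Blank, so Blank replicate 2 stood apart from the other 3 libraries in that count and in its miRNA share.

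Of the 356 miRNAs, 1 was called higher (0.281%) and 0 were called lower in Lv3NC than in Blank at an adjusted p under 0.05, by limma with Benjamini-Hochberg adjustment over all 356. The called miRNA was miR-328-3p, and the next smallest adjusted p was 0.187. At an unadjusted p under 0.05, 23 miRNAs passed (6.46%), with 13 higher (3.65%) and 10 lower (2.81%), where 17.8 would pass if no miRNA differed. limma on voom-weighted log counts called 0 miRNAs in either direction. Both Lv3NC libraries lay above both Blank libraries for 51 miRNAs (14.3%) and below both for 76 (21.3%), so that 127 (35.7%) did not overlap between the groups and the other 229 did. With 2 libraries a group, a share of 0.333 would not overlap if no miRNA differed. However, 5 of the 356 entered only through their level in Lv3NC and 14 only through their level in Blank. For these the direction and the separation are in part set by the rule, and the counts by direction here and below include them.

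The median log2 fold change over the 356 was -0.17, with 155 miRNAs higher and 201 lower in Lv3NC. More known miRNAs were lower than higher. Known miRNAs split into 75 higher and 127 lower, with a median of -0.21, and predicted miRNAs into 80 higher and 74 lower, with a median of 0.07. Among known miRNAs 21 had both Lv3NC libraries above both Blank libraries and 58 had both below, while the predicted ones had 30 above and 18 below. This balance depends on the scaling: with CPM of the miRNA total and no further factor, all log2 fold changes shifted down, the median by -0.35, and 105 were higher and 251 lower.

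**Figure D1:**
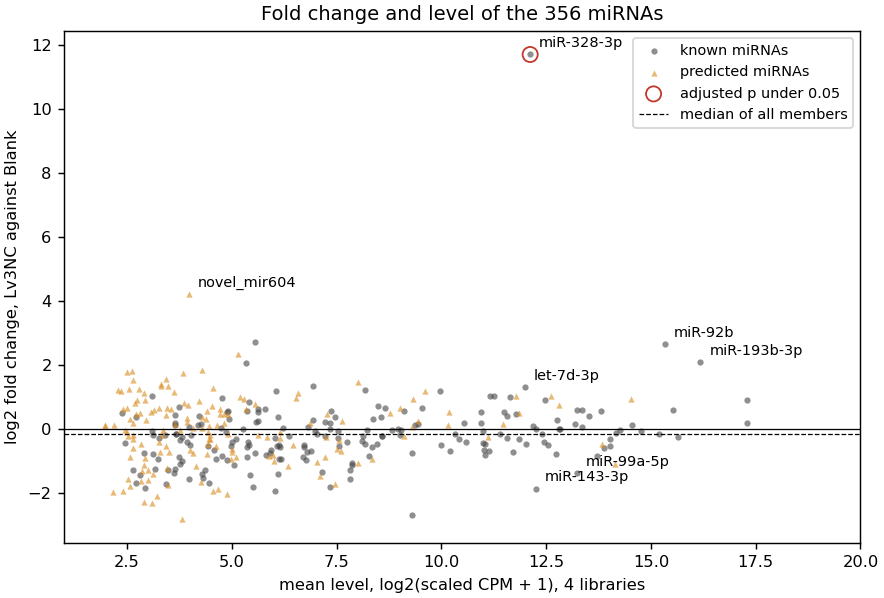
Each point is 1 of the 356 miRNAs, with its mean level over the 4 libraries as log2(scaled CPM + 1) across and its log2 fold change of Lv3NC against Blank upward; circles are known miRNAs, triangles are predicted ones, the ring marks an adjusted p under 0.05 and the dashed line is the median of -0.17. Only miR-328-3p, at 11.72, carries the ring, and the spread widens toward low levels.

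The 2 Lv3NC libraries were no more alike than libraries of different groups. Between them the median absolute log2 difference per miRNA was 0.84, and 157 of the 356 miRNAs differed more than 2-fold. Between the 2 Blank libraries it was 0.55, with 105 miRNAs past 2-fold. The 4 pairs of 1 Lv3NC and 1 Blank library gave 0.70 to 0.82, with 120 to 154 miRNAs past 2-fold. A single log2 fold change had a median standard error of 0.70, and 95 miRNAs had one beyond 1 in either direction.

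The called miRNA, miR-328-3p, has been reported in human cells to repress the drug transporter ABCG2. It had 65497 and 25623 reads in the Lv3NC libraries, against 10 and 10 reads in the Blank libraries. On the scaled CPM scale these were 12656 and 5115 CPM in Lv3NC, against 1.88 and 0.988 CPM in Blank. The groups lay far apart. It entered the comparison only through its level in Lv3NC, and the log2 fold change was 11.72 with a standard error of 0.70 (adjusted p = 3.95e-05, limma, higher in 2 of 2 libraries). In the other groups, 7653 and 2824 CPM were listed in the KD553 libraries and 9237 and 19760 CPM in the OV55666 libraries, against 1.74 and 0.315 CPM in the Lv5NC libraries. The direct test of Lv3NC against Lv5NC gave a log2 difference of 12.05 for miR-328-3p (adjusted p = 3.15e-05, limma), and this was again the 1 miRNA called higher of 356 (0.281%), with 0 called lower.

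The Blank and Lv5NC libraries, whose listed miR-328-3p was near 0, also had reads that the table did not assign to any listed identifier. The authors' TPM columns, which divide each count by 1 library total with no length term, summed to less than 1000000 there. The gap amounted to 15216 and 59485 reads in the Blank libraries, 23421 and 43510 reads in the Lv5NC libraries and 21117 reads in OV55666 replicate 2. The totals of the Lv3NC and KD553 libraries were not used, since their TPM columns could not be assigned to 1 library each. With all unlisted reads of Blank and Lv5NC counted as miR-328-3p, an upper limit for it in those libraries, the levels were 12623 and 5136 CPM in Lv3NC, against 2884 and 5864 CPM in Blank. The groups then overlapped, the log2 fold change was 0.97 with a standard error of 0.67 (adjusted p = 0.810, limma), and 0 miRNAs were called. Which identifier the unlisted reads belong to was not tested, and the listed level of miR-328-3p in Blank is therefore a lower limit.

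miR-193b-3p, which in human cells represses cyclin D1 and the urokinase PLAU, was next in order of p and was the second most abundant member in Lv3NC replicate 1. It had 156470 and 85986 CPM in the Lv3NC libraries, against 27137 and 27297 CPM in the Blank libraries. It made up 13.6% and 7.07% of the miRNA reads in Lv3NC, against 2.85% and 3.16% in Blank. The groups did not overlap and the Blank libraries lay close together, while the Lv3NC libraries differed from each other. The log2 fold change of 2.09 (standard error 0.43) did not pass the test over the 356 miRNAs (adjusted p = 0.187, limma), though it passed over the 1125 miRNAs tested with no filter on level (adjusted p = 0.00699). Over its 16 alternatives the adjusted p ran from 0.00699 to 0.938. Lv5NC had 41584 and 46709 CPM of miR-193b-3p, and the difference between Lv3NC and Lv5NC of 1.40 did not pass either (adjusted p = 0.516, limma). The other arm, miR-193b-5p, had 1618 and 5527 CPM in Lv3NC and 1526 and 2850 CPM in Blank, and its groups overlapped.

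**Figure D2:**
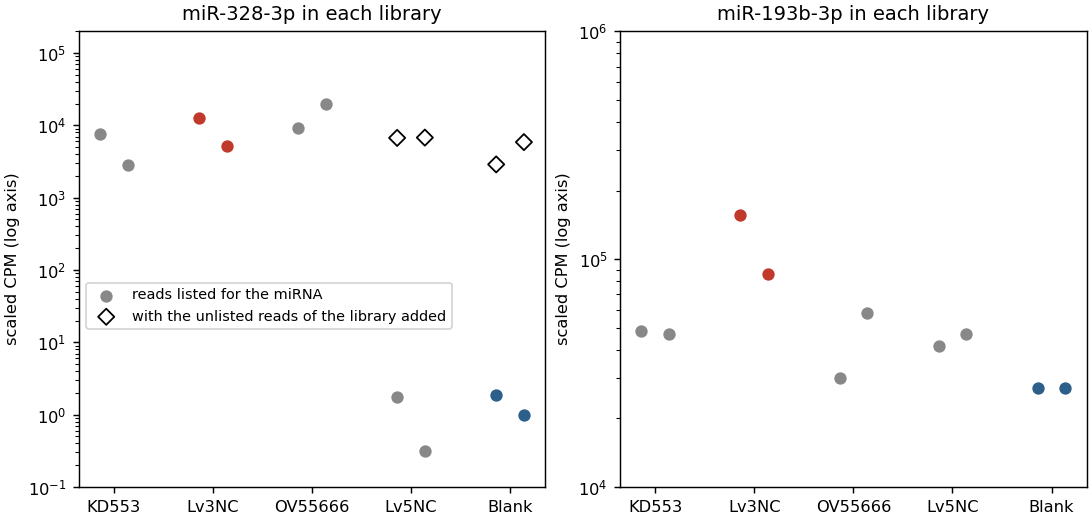
Scaled CPM on a log axis of miR-328-3p (left) and miR-193b-3p (right) in the 2 libraries of each group; filled points are reads listed for the miRNA and open diamonds add the unlisted reads of the Blank and Lv5NC libraries. Listed miR-328-3p is at 5115 CPM or more in Lv3NC and under 2 CPM in Blank, with the diamonds of Blank at 2884 and 5864 CPM, whereas miR-193b-3p of Lv3NC lies above all other libraries at 156470 and 85986 CPM.

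The most abundant members set the background of these cells. let-7b-5p, a repressor of HMGA2 and of RAS genes in human cells, had 105229 and 251172 CPM in the Lv3NC libraries, against 151289 and 136184 CPM in the Blank libraries. miR-222-3p, known in human cells for repressing the cell-cycle inhibitor CDKN1B, had 260618 and 160279 CPM in Lv3NC, against 130185 and 92214 CPM in Blank. On the scaled CPM, the Lv3NC libraries straddled the Blank ones for let-7b-5p (log2 fold change 0.18) and lay above both for miR-222-3p (0.90, standard error 0.72, adjusted p = 0.806, limma). As a share of the miRNA reads, with no scaling factor, miR-222-3p took 22.7% and 13.2% in Lv3NC, against 13.7% and 10.7% in Blank. The groups of miR-222-3p overlapped in those shares. Its cluster partner miR-221-3p had 3197 and 3315 CPM in Lv3NC, against 4598 and 3594 CPM in Blank, so that the 2 miRNAs lay on opposite sides. let-7a-5p, miR-423-3p and miR-455-3p overlapped between the groups, with log2 fold changes of -0.26, -0.17 and -0.06, and miR-99b-5p, of the family that represses mTOR in human cells, had 0.60 with overlapping groups.

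miR-92b showed the largest log2 fold change among the 8 most abundant members, 2.66, with a standard error of 1.98 (adjusted p = 0.806, limma). It had 53189 and 76375 CPM in the Lv3NC libraries, against 32325 and 3151 CPM in the Blank libraries, and the low value was that of Blank replicate 2, without which the log2 fold change was 0.98. miR-92a-3p, which shares its seed with miR-92b, had 12400 and 15209 CPM in Lv3NC, against 4265 and 46126 CPM in Blank. Blank replicate 2 was thus low in miR-92b and high in miR-92a-3p. Summed, the pair had 65589 and 91584 CPM in Lv3NC, against 36590 and 49277 CPM in Blank, a log2 ratio of the group means of 0.87. Counting can split reads between such near-identical sequences, and their separate values are uncertain. The same holds for miR-199a-3p and miR-199b-3p, whose sum was 1888 and 2103 CPM in Lv3NC, against 2654 and 4171 CPM in Blank, while miR-199b-3p alone had 22.03 and 765 CPM in Lv3NC, against 721 and 1011 CPM in Blank.

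Besides miR-328-3p, the 23 miRNAs with the smallest p among those averaging at least 50 CPM over the 4 libraries are described next. Of these 24 with miR-328-3p, 14 were higher and 10 lower in Lv3NC, 17 were known and 7 predicted, and the groups overlapped in none. That separation comes with the choice by p, and after miR-328-3p their adjusted p-values ran from 0.187 to 0.766 (limma), so none of them is reported as changed.

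On the higher side, let-7d-3p, the strand opposite the let-7d guide, had 5988 and 5422 CPM in the Lv3NC libraries, against 1651 and 3243 CPM in the Blank libraries, a log2 fold change of 1.30 (standard error 0.40, adjusted p = 0.683, limma). miR-99b-3p had 422 and 382 CPM in Lv3NC, against 144 and 203 CPM in Blank, a log2 fold change of 1.23. Both Lv3NC libraries were well above both Blank libraries in each case. miR-532-3p, from a cluster on the X chromosome in human and mouse, had 3823 and 2808 CPM in Lv3NC, against 1664 and 1521 CPM in Blank (1.04). miR-197-3p had 1632 and 1135 CPM in Lv3NC, against 466 and 762 CPM in Blank (1.19). For miR-18a-3p, of the proliferation-linked miR-17-92 cluster, the Lv3NC libraries were more unlike each other, with 62.0 and 123 CPM, against 39.99 and 36.46 CPM in Blank (1.18). miR-3432-3p had 82.5 and 281 CPM in Lv3NC, against 62.5 and 56.9 CPM in Blank (1.34), and most of its difference came from Lv3NC replicate 2.

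On the lower side, miR-99a-5p had 4165 and 6558 CPM in the Lv3NC libraries, against 10846 and 17069 CPM in the Blank libraries, a log2 fold change of -1.38 (standard error 0.48, adjusted p = 0.683, limma). let-7c-5p, which is encoded beside miR-99a in human and mouse, had 3681 and 6602 CPM in Lv3NC, against 8438 and 8443 CPM in Blank (-0.78). The groups did not overlap for miR-99a-5p or for let-7c-5p. Both have close relatives that differ at few bases, and the sums over letter variants were at 0.25 (miR-99, -5p) and 0.020 (let-7, -5p). Most reads of these sums belong to more abundant variants. In Lv3NC, miR-99b-5p had 43436 and 70937 CPM and let-7b-5p had 105229 and 251172 CPM. The sums therefore do not show the direction of miR-99a-5p or let-7c-5p. Whether reads were split between such variants was not tested, and the separate values remain uncertain. miR-103-3p, studied in goat mammary cells for its part in milk fat accumulation, had 110 and 149 CPM in Lv3NC, against 289 and 347 CPM in Blank (-1.30). miR-140-3p, from a hairpin best known in mouse cartilage, had 108 and 55.3 CPM in Lv3NC, against 201 and 201 CPM in Blank (-1.36). Lv3NC replicate 2 was the lowest of the 4 libraries for miR-140-3p and also for the miRNAs that follow. miR-143-3p, a smooth-muscle miRNA in mouse, had 4628 and 770 CPM in Lv3NC, against 8818 and 5386 CPM in Blank (-1.87, and -0.57 without Lv3NC replicate 2). miR-27b-5p had 48.3 and 12.4 CPM in Lv3NC, against 91.8 and 103 CPM in Blank (-1.93). miR-125b-3p had 102 and 46.9 CPM in Lv3NC, against 248 and 244 CPM in Blank (-1.82), the Blank libraries being nearly equal. miR-106b-3p (-0.99) and miR-93-3p (-1.42), 2 arms of the cluster within the MCM7 gene in human and mouse, were lower in both libraries as well.

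Of the predicted miRNAs, novel_mir1 was by far the most abundant of these, with 35507 and 26466 CPM in the Lv3NC libraries, against 15144 and 16825 CPM in the Blank libraries (log2 fold change 0.94, standard error 0.32, adjusted p = 0.683, limma). novel_mir11 had 394 and 353 CPM in Lv3NC, against 116 and 155 CPM in Blank (1.47). Higher values were also found for novel_mir3 (1.04), novel_mir598 (1.12), novel_mir6 (0.94) and novel_mir962 (0.95), and a lower one for novel_mir17 (-1.73). novel_mir17 had 189 and 26.6 CPM in Lv3NC, against 275 and 207 CPM in Blank, and without Lv3NC replicate 2 its log2 fold change was -0.34. Below the level of 50 CPM, novel_mir604 had 118 and 173 reads in Lv3NC, against 0 and 15 reads in Blank, which is 22.8 and 34.5 CPM against 0 and 1.48 CPM. It entered the comparison only through its level in Lv3NC. Its log2 fold change of 4.21 did not pass (adjusted p = 0.197, limma), and the size of a fold change against so few reads depends on the 1 CPM added before the logarithm. With 5 CPM added it was 2.54 and passed (adjusted p = 0.0187, limma), and over its alternatives the adjusted p ran from 0.0187 to 0.938. It is named here because its value was seen to be the second largest.

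**Figure D3:**
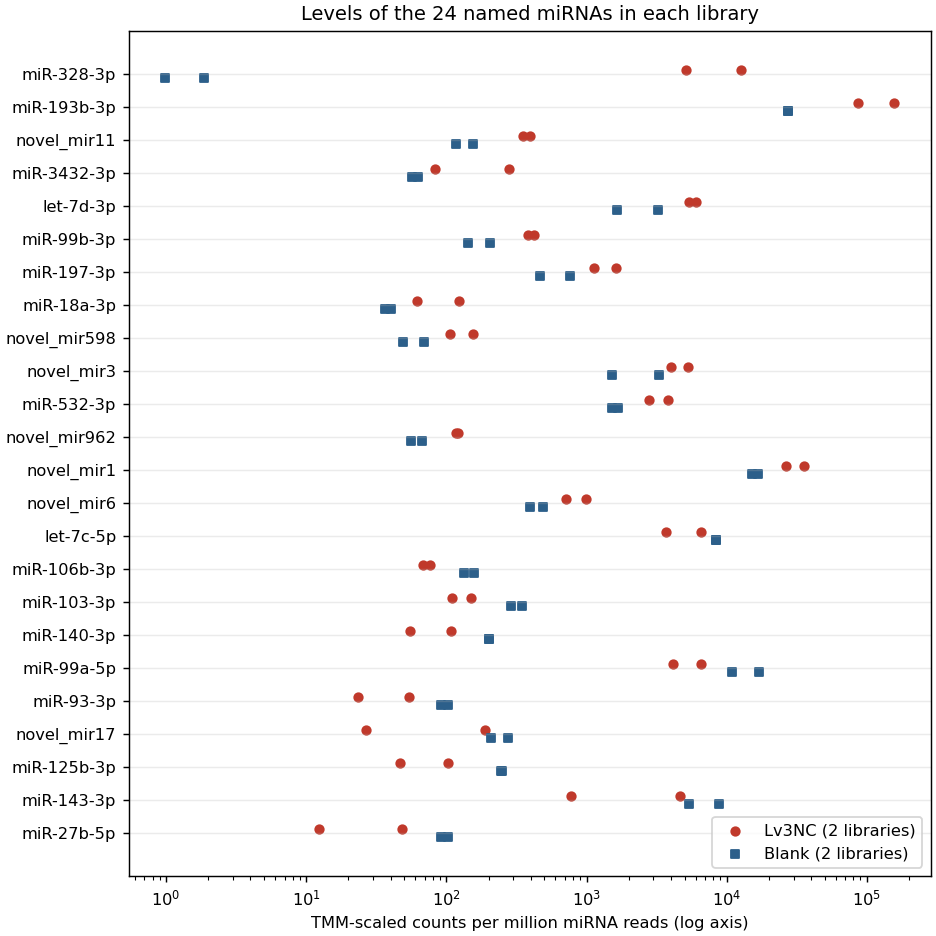
Scaled CPM (log axis) in the 2 Lv3NC and the 2 Blank libraries for the 24 miRNAs chosen by smallest p. No miRNA has overlapping groups, and the gap is widest for miR-328-3p, at 12656 and 5115 CPM in Lv3NC against 1.88 and 0.988 CPM in Blank; most other gaps are near or below 2 log2 units.

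In the same fit, the other control virus gave values against the same Blank libraries that can be set beside these, with the Blank libraries shared by both. Of the 5 that follow miR-328-3p in order of p, miR-193b-3p was at 2.09 in Lv3NC and at 0.70 in Lv5NC, let-7d-3p at 1.30 and 0.29, miR-99b-3p at 1.23 and 0.49, novel_mir1 at 0.94 and 0.20, and miR-99a-5p at -1.38 and -1.19. The log2 differences between Lv3NC and Lv5NC, which do not involve Blank, ran from -2.48 (novel_mir17) to 1.68 (novel_mir598) over the 23 miRNAs named beside miR-328-3p, and none passed the test. miR-143-3p stood at -1.87 in Lv3NC and 0.19 in Lv5NC, and novel_mir17 at -1.73 and 0.75. The differences of -2.06 for miR-143-3p and -2.48 for novel_mir17 did not pass the test (adjusted p = 0.516 and 0.516, limma). The second smallest adjusted p between the 2 control viruses, 0.095, was that of miR-342-3p at a log2 difference of 2.46, whose levels were 2546 and 4491 CPM in Lv3NC and 2505 and 2564 CPM in Blank. That difference passed when no filter was applied and when known miRNAs alone were tested, and miR-199a-3p passed with scaling to all reads in the table. Lv3NC against Lv5NC gave 31 miRNAs at an unadjusted p under 0.05 (8.71%), and Lv5NC against Blank gave 25 (7.02%) with 0 called in either direction.

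Families and functional groups were described by the count and median of their members, beside the median of -0.17 and the 14.3% above and 21.3% below over all 356 miRNAs. Of 22 lists, 19 had at least 3 members, and among these 6 had a median above 0 and 13 below it. No list held a miRNA that passed the test. With no scaling factor beyond the miRNA total, the medians of miR-221 and miR-222, miR-34 and miR-449, miR-99 and miR-100, and miR-125 were below 0, and with median-of-ratios scaling that of miR-181 was 0.04 in place of -0.06. Without Lv3NC replicate 1 the let-7 median was 0.14.

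Among the let-7 miRNAs, 6 of 15 were higher and 9 lower (median -0.19), with 2 above and 2 below both Blank libraries. The direction within the family was mixed, from let-7d-3p at 1.30 to let-7i-3p at -1.46. The 4 members of the miR-193 and miR-365 list had 3 higher and 1 lower (median 0.72, and 0.34 with no scaling factor), led by miR-193b-3p. miR-193a had 11837 and 3750 CPM in Lv3NC, against 3185 and 3908 CPM in Blank. miR-365-3p was on the lower side at -0.57. The 3 members from the pair of miR-221 with miR-222 had a median of 0.37, which was -0.01 with no scaling factor. The miR-99 and miR-100 family (5 members) and the miR-125 family (4 members) had medians of 0.05 and 0.15, which were -0.34 and -0.23 with no scaling factor.

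Among all known members 127 of 202 were lower, and the families below are read against that share. Of the 14 members of the miR-17-92 cluster and its paralogs, which are linked to proliferation, 4 were higher and 10 lower (median -0.49), with 2 above and 7 below both Blank libraries. miR-20a-5p had 22.03 and 34.7 CPM in Lv3NC, against 45.6 and 58.8 CPM in Blank, and miR-17-5p had 20.3 and 51.3 CPM, against 52.6 and 58.1 CPM. Neither passed the test (adjusted p = 0.806 and 0.806, limma). Of 7 members with the miR-15/16 seed, which restrains cyclins in human cells, 1 was higher and 6 lower (median -0.41), with 0 above and 4 below. The miR-29 family, which represses collagen genes in mouse heart, had 1 higher and 3 lower of 4 (median -0.47, and 0.0068 without Lv3NC replicate 1). miR-29a-3p had 1669 and 3567 CPM in Lv3NC, against 3720 and 4434 CPM in Blank. The miR-30 family had 2 higher and 4 lower of 6 (median -0.29, but 0.70 with a filter of 50 CPM, which left miR-30a-5p alone). Its most abundant member, miR-30a-5p, had 1944 and 2759 scaled CPM in Lv3NC, against 1773 and 1463 CPM in Blank. The log2 fold change of miR-30a-5p was 0.52 with a standard error of 0.49 (adjusted p = 0.806, limma), and 0.14 at its lowest alternative.

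miRNAs studied in milk fat synthesis and lactation had 2 higher and 12 lower of 14 (median -0.52), with 0 above and 5 below both Blank libraries. At an unadjusted p under 0.05, 3 of the 14 were lower, beside 2.81% of all 356, namely miR-103-3p, miR-27b-5p and miR-130a-3p. miR-130a-3p, which represses the adipogenic factor PPARG in human cells, had 21.4 and 18.4 CPM in Lv3NC, against 44.9 and 44.3 CPM in Blank (log2 fold change -1.13, adjusted p = 0.683, limma). miR-26a-5p had 4060 and 5828 CPM in Lv3NC, against 6354 and 7606 CPM in Blank, and miR-26b-5p had 128 and 173 CPM, against 272 and 356 CPM. The Lv3NC libraries were below the Blank ones for miR-26a-5p and miR-26b-5p, at log2 fold changes of -0.51 and -1.06. The other member of the miR-26 family, miR-26b-3p, was on the higher side at 0.44, with overlapping groups. It had 14.3 and 8.38 CPM in Lv3NC, against 2.63 and 20.4 CPM in Blank. The same list had a median of -0.65 in Lv5NC against the shared Blank libraries.

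Of the innate response list, 3 miRNAs were members, with 1 higher and 2 lower (median -0.51). miR-155-5p, which immune cells raise on activation, had 611 and 1113 CPM in Lv3NC, against 1144 and 1199 CPM in Blank (log2 fold change -0.51, adjusted p = 0.806, limma). Lv3NC replicate 1 was the lower of its group and replicate 2 was close to Blank. In the large imprinted cluster of the DLK1-DIO3 region, 5 of 42 listed miRNAs reached the level of the rule, and 5 of 5 were lower (median -1.27), with 4 below both Blank libraries. All were at low levels: miR-154b-5p had 6.18 and 7.59 CPM in Lv3NC, against 19.1 and 26.3 CPM in Blank, and miR-665 had 3.09 and 1.60 CPM, against 8.64 and 13.1 CPM. miR-665 and miR-380-3p entered only through their Blank level, so that the count of lower members is in part set by the rule. The same 5 had a median of -1.76 in Lv5NC against the shared Blank libraries.

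The labelled tissue was checked with cell type markers. Of 8 listed miRNAs enriched in epithelial cells, only miR-200c was a member, with 14.5 and 6.79 CPM in Lv3NC, against 5.82 and 3.26 CPM in Blank. The 8 summed to 28.02 and 10.98 CPM in Lv3NC, against 15.96 and 9.88 CPM in Blank. Markers of epithelium were thus at low levels in all 4 libraries, and miR-141 was at 0 in Blank replicate 2. The 11 markers of stromal and smooth muscle cells were all members and summed to 14757 and 12557 CPM in Lv3NC, against 22737 and 19948 CPM in Blank. Of these, 1 was higher and 10 lower (median -0.57), with 0 above and 4 below both Blank libraries. The count takes the arms of miR-199a, miR-199b and miR-199c one by one, although their separate values are uncertain. For example, miR-199c-3p had 7.15 and 534 CPM in Lv3NC, against 734 and 12.2 CPM in Blank. miR-145-3p, counted among the lower ones, entered only through its Blank level, and the exact two-sided permutation test of the sums cannot go below p = 0.333. In bulk libraries, fewer cells of a type and less RNA per cell cannot be told apart. miR-145-5p (-0.08) and miR-214-3p (-0.17) were close to level, and miR-143-3p held the largest share of the difference in the sum. In Lv5NC the sums were 19730 and 22772 CPM.

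Markers of other cell types did not separate the groups. The 6 blood-cell markers summed to 1037 and 196 CPM in Lv3NC, against 249 and 340 CPM in Blank, most of it miR-451-5p in Lv3NC replicate 1, with miR-451-3p at 0 in all 4 libraries. The endothelial markers, both arms of miR-126, summed to 92.7 and 31.9 CPM in Lv3NC, against 29.3 and 43.5 CPM in Blank. The 5 markers of striated muscle summed to 212 and 162 CPM in Lv3NC, against 192 and 150 CPM in Blank. miR-206, of skeletal muscle, was at 0 in both Lv3NC libraries and in Blank replicate 1. The part of cell composition in the differences above was not tested.

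**Figure D4:**
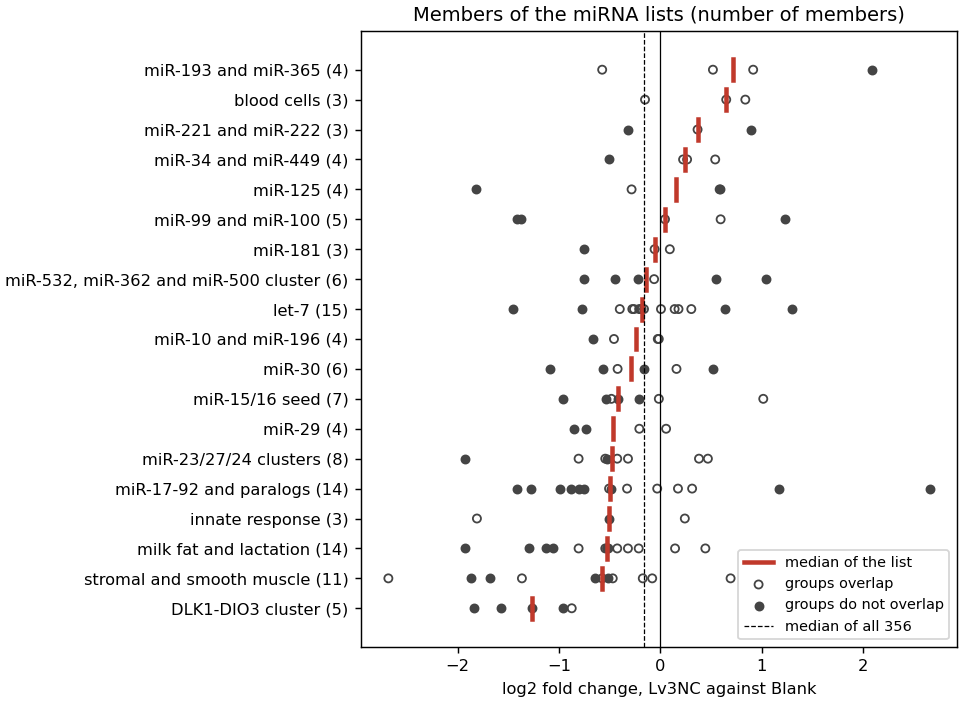
Log2 fold change of Lv3NC against Blank (across) for each member of the 19 lists with at least 3 members; filled points have groups that do not overlap, open points have groups that do, the red bar is the list's median and the dashed line the median of all 356. The medians run from -1.27 for the DLK1-DIO3 cluster to 0.72 for miR-193 and miR-365, and no member passed the test.

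For 57 hairpins both arms were members, and the ratio of the less abundant to the more abundant arm was compared within each library, which needs no scaling between libraries. This comparison was chosen after the values had been seen. The ratio was lower in both Lv3NC libraries than in both Blank libraries for 17 hairpins (29.8%) and higher for 8 (14.0%). With 2 libraries a group, a share of 0.333 would not overlap if no ratio differed. That share is for both directions together, so it is to be set beside the lower and higher ratios taken jointly. By group means it was lower for 33 and higher for 24, with a median log2 difference of -0.18. The less abundant arms by themselves lay below both Blank libraries in 20 of 57 cases and above in 8 (median log2 fold change -0.43). The more abundant arms lay below in 10 of 57 and above in 5 (median -0.17). Over all 356 miRNAs, 21.3% lay below and 14.3% above.

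miR-125b showed the largest difference in the ratio, -2.42 on the log2 scale. Its less abundant arm, miR-125b-3p, made up 0.895% and 0.340% of the reads of both arms in the Lv3NC libraries, against 3.07% and 2.71% in the Blank libraries. The main arm lay on the other side, with 11280 and 13766 CPM of miR-125b-5p in Lv3NC, against 7827 and 8764 CPM in Blank. On the scaled CPM the groups did not overlap in either arm, but neither arm passed the test. The log2 fold change of miR-125b-5p was 0.59 with a standard error of 0.49 (adjusted p = 0.806, limma), and 0.21 at its lowest alternative. For miR-18a, the -5p arm made up 6.41% and 5.07% in Lv3NC, against 20.8% and 20.6% in Blank, a log2 difference of -2.09. That arm was near the limit of the rule, with 4.25 and 6.59 scaled CPM in Lv3NC, against 10.5 and 9.49 CPM in Blank. For miR-532, the -5p arm made up 29.3% and 39.6% in Lv3NC, against 62.3% and 56.4% in Blank (-1.49), so the more abundant arm was -3p in Lv3NC and -5p in Blank. miR-30b had 21.7% and 34.6% of its reads on the -5p arm in Lv3NC, against 52.4% and 46.8% in Blank (-1.35). Its -5p arm was also at a low level, with 5.02 and 10.6 scaled CPM in Lv3NC, against 22.3 and 12.5 CPM in Blank. let-7i (-1.65) and miR-27b (-1.56) were on the same side. So was miR-145 (-2.01), but its less abundant arm entered only through its Blank level, as did that of miR-340, so that their lower ratios are in part set by the rule.

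Ratios on the opposite side included let-7d, whose -3p arm made up 65.2% and 43.6% of the reads in the Lv3NC libraries, against 26.3% and 40.3% in the Blank libraries, a log2 difference of 1.29. Lv3NC replicate 2 and Blank replicate 2 were close there. For miR-128, the -5p arm made up 18.2% and 13.3% in Lv3NC, against 7.17% and 10.6% in Blank (0.95). With 2 libraries in each group, none of the arm ratios could reach an exact p below 0.333. Arm shares therefore stand as values of these 4 libraries.

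**Figure D5:**
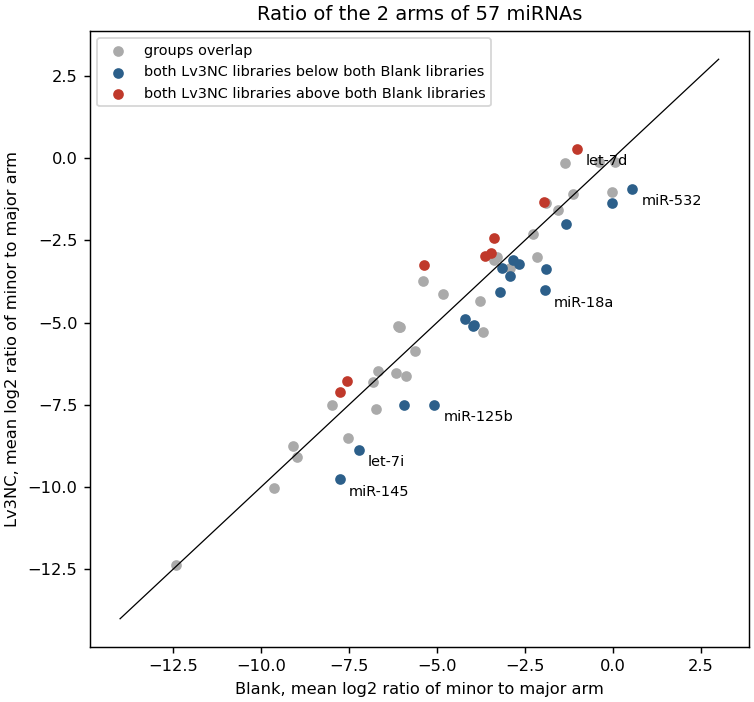
Each point is 1 of the 57 hairpins, with the mean log2 ratio of its less to its more abundant arm in Blank across and in Lv3NC upward; the diagonal marks equal ratios, blue points have both Lv3NC libraries below both Blank libraries, red points have both above, and grey points overlap. The 17 blue points lie below the diagonal, miR-125b, miR-18a and miR-145 by more than 2 log2 units, and the 8 red points lie above it, among them let-7d at 1.29.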

How the data were processed

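Small RNA of 10 libraries was measured, and the deposited table holds Count and TPM columns for 2233 identifiers. Per the file headers the counts are whole reads with no normalization, and 50.7% of count cells hold a missing mark (no cell is 0), which was read as 0. Their unit was therefore recorded as another kind of value than plain counts. The deposited TPM columns, per the file headers, are the authors' values, and were used only to find library totals. Left out were 4 TPM columns that could not be assigned to 1 library, since both of Lv3NC carry 1 header and those of KD553 name only their group. Details of alignment, miRNA database, genome build and mature sequences were not given in the sources used here, so no sequence is printed.

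CPM of miRNA reads was scaled with TMM factors (trimming 30% of ratios and 5% of levels). The factors were 0.870 and 0.823 in Lv3NC and 1.05 and 1.16 in Blank. Then log2(CPM + 1) was fitted with limma 3.58.1 and statmod 1.5.0 in R 4.3.3, with trend and robust moderation, in 1 fit of 10 libraries and 5 group means leaving 5 residual degrees of freedom. All tests used both sides, with Benjamini-Hochberg adjustment over 356 miRNAs and a threshold of 0.05. Because the unit was recorded as other than plain counts, no count model was run. Precision is limited by 2 libraries per group.

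Named were all miRNAs past the threshold (at most 15 in each direction), filled to 24 in order of p among those averaging 50 CPM or more, the 8 most abundant members, and list members where a list is described. Others named for arm ratios, near-identical sequences or their size were chosen after their values were seen. The members and lists were chosen with earlier results of these data known.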

Additional observations from a re-analysis of the deposited data

Results flagged for a closer look

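The listed level of miR-328-3p differed between the 2 control viruses in the same fit, with a log2 difference of 12.05 (Lv3NC minus Lv5NC, adjusted p = 3.15e-05, limma). With the unlisted reads of the Blank and Lv5NC libraries counted as miR-328-3p, the difference was 0.26 (adjusted p = 0.887, limma).

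Predicted siRNAs lie outside the miRNA comparison and had 33 and 33 reads in the Lv3NC libraries (mean 33), against 23 and 10 reads in the Blank libraries. They had 785 and 247 reads in KD553, 24 and 37 in OV55666, and 16 and 22 in Lv5NC. The sums join different identifiers: novel_sir6 had 33 and 22 reads in Lv3NC, against 23 and 0 in Blank, novel_sir3 had 0 and 11 in Lv3NC and none in Blank, and the 10 reads of Blank replicate 2 were novel_sir4. Of the KD553 reads, 773 and 247 were novel_sir3. The exact two-sided permutation test of Lv3NC against Blank cannot go below p = 0.333.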

How the results depend on the processing

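miR-328-3p was the called miRNA in 14 of the 16 alternatives that could be run and 0 miRNAs were called lower in any. The exceptions for the higher calls were limma on voom weights (0 called, miR-328-3p at 12.58, adjusted p = 0.105) and the unlisted reads counted as miR-328-3p, an alternative chosen after seeing the data (0 called against Blank and 0 against Lv5NC). There were 2 calls with a pseudocount of 5 (novel_mir604 added), 2 with no filter (miR-193b-3p added) and 2 without Blank replicate 1 (miR-505-3p added). Leaving out 1 library at a time gave 1 to 2 calls against Blank and 1 to 3 against Lv5NC, the 3 without Lv5NC replicate 2, with miR-199a-3p and let-7e-3p added. With the replicate number as a block, 1 was called higher and 0 lower, and 38 miRNAs in place of 23 passed at an unadjusted p under 0.05. Same-numbered Lv3NC and Blank libraries had deviations correlated at 0.21, and the 6 pairs of groups gave 0.14 to 0.24. The labels name nothing shared by a number, and with 2 numbers pairing was not taken as shown. Against Lv5NC, 2 were called with no filter and 2 with known miRNAs only (miR-342-3p added), and 2 with all reads in the table (miR-199a-3p added).

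The median over all miRNAs was -0.50 with no filter, 0.0070 with a filter of 50 CPM, -0.055 with median-of-ratios scaling, -0.51 with the miRNA total, -0.51 with all reads in the table, and -0.23 to 0.012 leaving out 1 library. Signs turned in these settings. Summed over letter variants, miR-99 (-5p) was at 0.25, let-7 (-5p) at 0.020, let-7 (-3p) at 1.07 and miR-99 (-3p) at 1.03. These are values of the sums, whereas miR-99a-5p, let-7c-5p, let-7a-5p, let-7i-3p and miR-99a-3p were each below 0 alone. let-7d-3p and miR-99b-3p held most reads of the -3p sums. let-7b-5p was at -0.20 with the miRNA total and -0.18 with all reads. With the 50 CPM filter, miR-423-3p was at 0.014, miR-455-3p at 0.12, miR-92a-3p at 0.15, miR-145-5p at 0.10 and miR-214-3p at 0.0070. With median-of-ratios scaling, miR-455-3p was at 0.052, miR-92a-3p at 0.081 and miR-145-5p at 0.031, and novel_mir11 against Lv5NC at -0.063.

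Leaving out 1 library gave ranges against Blank of -0.45 to 0.81 for let-7b-5p, -0.69 to 0.17 for let-7a-5p, -0.68 to 0.35 for miR-423-3p, -0.38 to 0.26 for miR-455-3p, -1.75 to 1.69 for miR-92a-3p, -0.37 to 1.41 for miR-193b-5p, -1.23 to 0.084 for miR-365-3p, -0.28 to 5.73 for miR-505-3p, -0.88 to 0.72 for miR-145-5p and -0.35 to 0.0041 for miR-214-3p. Against Lv5NC they were -0.69 to 0.31 for miR-99a-5p, -0.69 to 0.74 for novel_mir11, -0.36 to 0.20 for miR-532-3p, -0.25 to 0.56 for miR-197-3p, -0.62 to 1.14 for miR-3432-3p and -0.31 to 0.53 for let-7c-5p. The Lv3NC minus Blank share of reads ran from -13.2 to 10.3 percentage points for known miRNAs, -0.98 to 0.096 for predicted miRNAs and -1.84 to 2.91 for RF identifiers. Outside the genome regions it was 1.5 points for known miRNAs and -0.758 for RF identifiers. List medians changed sign in the following settings. The let-7 median of -0.19 was 0.019 with the 50 CPM filter, 0.020 with letter variants summed, 0.14 without Lv3NC replicate 1 and 0.10 without Blank replicate 2. Without Lv3NC replicate 1, miR-29 was at 0.0068, miR-10 and miR-196 at 0.16, miR-181 at 0.29, the miR-532 cluster at 0.15 and blood cells at -0.27 (0.65 with all libraries). Without Lv3NC replicate 2, miR-221 and miR-222 were at -0.19, miR-34 and miR-449 at -0.018, and miR-99 and miR-100 at -0.32. Without Blank replicate 1, miR-23/27/24 was at 0.067, miR-99 and miR-100 at -0.32 and miR-181 at 0.24, and without Blank replicate 2 miR-221 and miR-222 were at -0.15. miR-30 was at 0.0037 with no filter, 0.70 with the 50 CPM filter and 0.058 summed, miR-99 and miR-100 at -0.49 with no filter, miR-125 at -0.37 summed, and miR-181 at 0.27 with the 50 CPM filter, 0.044 with voom weights and 0.00046 summed. Under the 50 CPM filter, miR-30a-5p alone was left of miR-30 and miR-181b-5p alone of miR-181, so those values are not medians of several members. The causes were not tested, and with 2 libraries a group differences near the median standard error of 0.70 were not detectable.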
